A study of Mus musculus with 9 samples.

Results

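The bi population of the Comma-1D mouse mammary epithelial line, sorted as Sca-1 high and EpCAM high, was compared with the L population, sorted as Sca-1 low and EpCAM high. The libraries were chosen by their labelled population: 6 of the 9 libraries were bi or L, 1 of each in each of 3 arms, and the other 3 were B libraries (Sca-1 high, EpCAM low), whose levels are given beside them. The MYC arm had been transduced with an activated MYC oncogene and the Her2 arm with an activated Her2 oncogene, and the CTRL arm is labelled control. All arms were grown in DMEM:F12 with 2% fetal calf serum, 5 ng/mL mouse EGF, 10 µg/mL human insulin and 50 µg/mL gentamicin, and each library was made from 200 ng of total RNA. The labels used here do not give the species or vector of the oncogenes, what the controls carried, whether the 3 populations of an arm came from 1 culture, or a batch, and the data come from 1 cell line. With 1 library for each population and arm, the comparison is the average over the arms, 3 libraries against 3. Its error was estimated over all 9 libraries, B included, with the mean differences between arms taken out. That error holds both library noise and differences between arms in how the populations differ. Whether a sorted population held fewer cells of a type or less RNA of a gene per cell cannot be told apart in bulk RNA.

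The mammary epithelium consists of an inner luminal layer, which carries keratins 8, 18 and 19 and secretes milk, and an outer basal layer, which carries keratins 5 and 14 and contracts. EpCAM, an adhesion molecule of epithelial cells, is higher on luminal cells, and Sca-1, the product of Ly6a, is a surface protein used to separate mammary subsets. The chemokine Cxcl12 recruits cells through its receptor Cxcr4, and Igfbp4 binds insulin-like growth factors outside the cell and limits their action.

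Depth was 98.9, 53.4 and 81.2 M reads in the bi libraries of the CTRL, MYC and Her2 arms, against 75.4, 69.3 and 75.6 M in the L libraries. Ribosomal loci took 13.1% to 16.1% of the reads in bi and 12.3% to 13.5% in L, and their part in the results was not tested. Levels are CPM, read counts scaled to the size of the library. Ly6a was at 18.4, 139 and 15.9 CPM in bi CTRL, MYC and Her2, against 6.53, 12.8 and 2.37 CPM in L, and it was higher in bi in every arm. Epcam was at 336, 252 and 288 CPM in bi, against 408, 331 and 610 CPM in L and under 1 CPM in each B library. The libraries therefore followed their sort labels on these genes, and since the cells were sorted on both, their differences are no finding.

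Calls rest on edgeR's quasi-likelihood test over 23834 genes, with a threshold of 0.05 on the p adjusted by Benjamini-Hochberg. Between bi and L 179 genes were called, which is 0.751% of those tested, and 2061 of the 23834 had an unadjusted p under 0.05. The Wald test of DESeq2, run as an alternative, called 663 of the 23834, 349 higher and 314 lower in bi. The counts given below for each gene list are to be read beside these totals. Of the 179 edgeR calls 118 were higher in bi (0.495%) and 61 were lower (0.256%). Each of the 179 had the same sign in all 3 arms, and 170 were protein coding. Every bi library lay above every L library for 106 of the 118, against 5.11% of all genes tested, and below every L library for 43 of the 61, against 4.77%. The median log2 fold change was 2.04 for the called genes higher in bi and -2.36 for those lower in bi, against 0.00 over all genes tested. By arm, the genes called higher had a median log2 ratio of bi to L of 1.71 in CTRL, 2.25 in MYC and 1.85 in Her2, and those called lower of -1.83, -2.08 and -2.76. The widest ratio was in the MYC arm for 70 of the 118 higher genes and in the Her2 arm for 41 of the 61 lower genes. How often each arm held the widest ratio over all genes tested was not counted, so these counts cannot be set apart from a general trait of the libraries. All ratios within an arm come from 1 library against 1 and have no test.

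**Figure D1:**
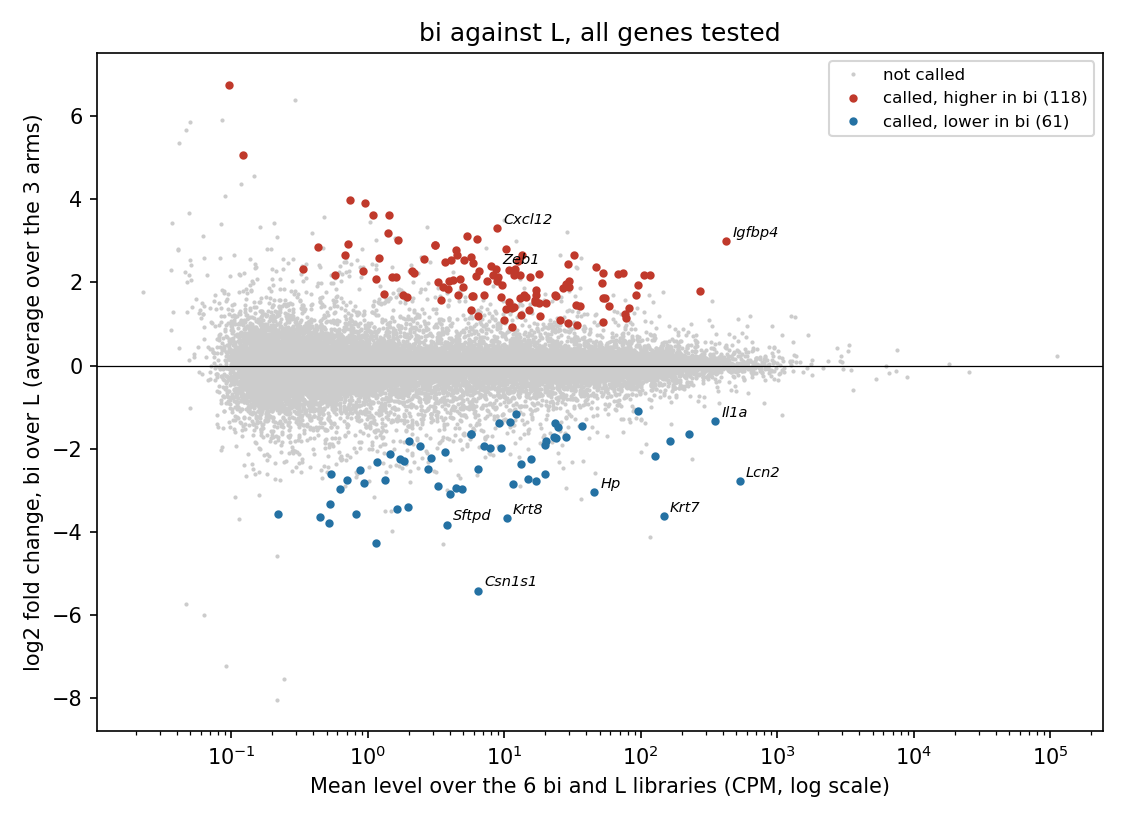
Each point is 1 of the 23834 genes tested, at its mean level over the 6 bi and L libraries (CPM, log scale) and its log2 fold change of bi over L averaged over the arms. The 118 genes called higher in bi and the 61 called lower are coloured, and the rest lie around 0.

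Promoter sequences are shown for 4 genes that fell in bi, the casein gene Csn1s1, the keratin genes Krt8 and Krt7 and the claudin gene Cldn7, and for Cxcl12, which rose. They run from 250 bases before to 50 after the start of the gene in RefSeq, which for Krt8, Krt7 and Cldn7 lies inside the wider GENCODE interval, 5′ to 3′ on the gene's strand, from RefSeq on GRCm38.p6, the genome also called mm10. Windows are chr5:87665958-87666257 (plus strand) for Csn1s1, chr15:102004293-102004592 (minus strand) for Krt8, chr15:101412153-101412452 (plus strand) for Krt7, chr11:69965171-69965470 (plus strand) for Cldn7 and chr6:117168285-117168584 (plus strand) for Cxcl12. Capitals mark TTCNNNGAA, the letters of the STAT5 motif, in Csn1s1, and CACCTG on either strand, the E-box core bound by Zeb1 and the Snai proteins, in Krt8, Krt7 and Cldn7. The Cxcl12 window holds neither, nor the AP-1 letters TGACTCA, and so has no capitals. The window of Igfbp4, which also rose, held none of these letters and is not shown.
Csn1s1: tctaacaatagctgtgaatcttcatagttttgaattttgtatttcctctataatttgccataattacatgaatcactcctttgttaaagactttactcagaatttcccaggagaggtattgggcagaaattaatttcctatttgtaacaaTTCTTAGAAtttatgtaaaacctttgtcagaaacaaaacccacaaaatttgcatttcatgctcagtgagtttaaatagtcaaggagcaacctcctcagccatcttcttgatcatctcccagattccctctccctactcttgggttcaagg
Krt8: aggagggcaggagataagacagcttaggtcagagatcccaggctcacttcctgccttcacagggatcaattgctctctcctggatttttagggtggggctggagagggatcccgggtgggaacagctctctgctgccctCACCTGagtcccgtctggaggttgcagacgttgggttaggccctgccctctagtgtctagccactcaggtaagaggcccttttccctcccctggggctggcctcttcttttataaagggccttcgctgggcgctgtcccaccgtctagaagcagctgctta
Krt7: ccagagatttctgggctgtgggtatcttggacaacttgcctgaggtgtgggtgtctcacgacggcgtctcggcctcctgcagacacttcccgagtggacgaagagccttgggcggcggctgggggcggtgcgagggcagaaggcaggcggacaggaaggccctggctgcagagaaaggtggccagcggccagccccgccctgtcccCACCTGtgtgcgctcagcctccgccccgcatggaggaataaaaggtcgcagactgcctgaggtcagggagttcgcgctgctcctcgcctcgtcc
Cldn7: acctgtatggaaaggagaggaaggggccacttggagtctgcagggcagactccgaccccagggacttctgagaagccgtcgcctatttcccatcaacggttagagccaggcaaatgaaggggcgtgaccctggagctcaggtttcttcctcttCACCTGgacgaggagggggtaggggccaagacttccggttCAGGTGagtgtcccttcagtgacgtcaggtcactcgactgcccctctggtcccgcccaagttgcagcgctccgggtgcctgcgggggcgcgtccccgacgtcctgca
Cxcl12: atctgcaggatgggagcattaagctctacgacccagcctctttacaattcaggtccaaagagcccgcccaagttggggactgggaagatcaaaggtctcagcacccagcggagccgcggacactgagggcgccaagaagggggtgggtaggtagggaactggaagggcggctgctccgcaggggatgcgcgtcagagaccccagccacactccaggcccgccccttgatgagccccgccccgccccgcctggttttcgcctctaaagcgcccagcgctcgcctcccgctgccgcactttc

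Positions are counted from the RefSeq start. The STAT5 letters began at -100 in Csn1s1, a milk casein gene that STAT5 is known to act on. CACCTG began at -111 in Krt8 and at -44 in Krt7. The Cldn7 window, 1 of 2 that the table gives for this gene, held it at -97 and, on the other strand, at -57, and also held TTCNNNGAA, which is not capitalised and lies apart from both. Both strands were searched. Of all 32851 promoters in the table, 20.2% held CACCTG, 8.30% TTCNNNGAA and 5.20% TGACTCA. The E-box core was in 19 of 84 genes called higher in bi with a promoter in the table (22.6%) and in 18 of 48 called lower (37.5%), beside 22.02% of the 13781 genes tested that had one. TTCNNNGAA was in 5.95% of the genes called higher and 6.25% of those called lower, beside 8.58% of the genes tested, and TGACTCA in 4.76% and 6.25%, beside 5.40%. These shares are a description with no test. Of the 60 named genes that were called, 43 had a promoter in the table.

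Genes of secreted signals were among those that rose in bi. Igfbp4 (chr11:99041244-99054392) was at 529, 833 and 882 CPM in bi CTRL, MYC and Her2, against 92.8, 57.1 and 134 CPM in L and 1992, 3314 and 3266 CPM in B. The 3 populations did not overlap, with bi between L and B. Its log2 fold change of bi over L was 2.98 (SE 0.30, adjusted p = 0.00813). Cxcl12 (chr6:117168535-117181367) was at 20.4, 21.9 and 5.89 CPM in bi, against 1.82, 2.26 and 0.704 CPM in L and 80.5, 251 and 39.0 CPM in B. Within each population it was lowest in the Her2 arm, and its log2 fold change was 3.30 (SE 0.30, adjusted p = 0.00813). Both genes kept their call without each library and each arm in turn, with log2 fold changes from 2.60 to 3.26 for Igfbp4 and from 3.01 to 3.53 for Cxcl12.

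The monocyte-attracting chemokine genes Ccl2 and Ccl7 rose as well. Ccl2 was at 9.93, 3.71 and 2.86 CPM in bi, against 1.001, 0.964 and 0.278 CPM in L, with no overlap (log2 fold change 2.89, SE 0.39, adjusted p = 0.0167). Ccl7 was at 1.60, 4.28 and 0.252 CPM in bi, against 0.169, 0.254 and 0.0293 CPM in L (3.63, SE 0.54, adjusted p = 0.0251). In the Her2 arm Ccl7 rested on 22 reads in bi and 2 in L, a ratio of 8.60 with an exact 95% interval for counting error of 2.11 to 75.4. These and Cxcl12 were the 3 of 26 tested chemokine ligand genes that edgeR called, 9 had an unadjusted p under 0.05, and DESeq2 called 5, 3 higher and 2 lower in bi. The median of the list was -0.06, and it lay between -0.17 without bi Her2 and 0.25 without bi CTRL. Of 11 chemokine receptors and decoys only Ccrl2, a receptor that binds chemerin without signalling, was called. It was at 0.981, 1.54 and 0.172 CPM in bi, against 5.82, 7.97 and 3.24 CPM in L, and fell by 2.89 on the log2 scale (SE 0.45, adjusted p = 0.0263). The call of Ccl2 was lost without L Her2 or bi Her2, that of Ccl7 without any 1 of the L libraries, bi MYC or bi Her2, and that of Ccrl2 without any 1 of the L libraries, bi MYC or bi Her2. Ccl2 and Ccrl2 also lost their call without the CTRL arm, and Ccl7 without the Her2 arm. The losses given for genes elsewhere name single libraries only, and many of those calls were also lost without a whole arm.

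Among 19 tested genes of insulin-like growth factor signalling 3 rose, all of them binding proteins, and none fell. Igfbp2 was at 30.7, 11.4 and 11.3 CPM in bi, against 6.62, 2.53 and 2.10 CPM in L (2.30, SE 0.39, adjusted p = 0.0339). Igfbp3 was at 393, 604 and 249.8 CPM in bi, against 176, 120.0 and 75.3 CPM in L (1.79, SE 0.30, adjusted p = 0.0346). For both, every bi library lay above every L library, but each call was lost without any 1 of the L libraries or bi Her2, that of Igfbp2 also without B CTRL or bi CTRL, and that of Igfbp3 also without bi MYC. The binding protein gene Igfbp5 went the other way without a call, at 1.93, 18.9 and 3.04 CPM in bi and 9.06, 104 and 14.4 CPM in L (adjusted p = 0.119), and was chosen after its values were seen. DESeq2 called 4 of the list, all higher in bi, and 9 had an unadjusted p under 0.05. The median of the list was 0.22, against 0.38 without L MYC or L Her2 and 0.44 without bi CTRL.

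**Figure D2:**
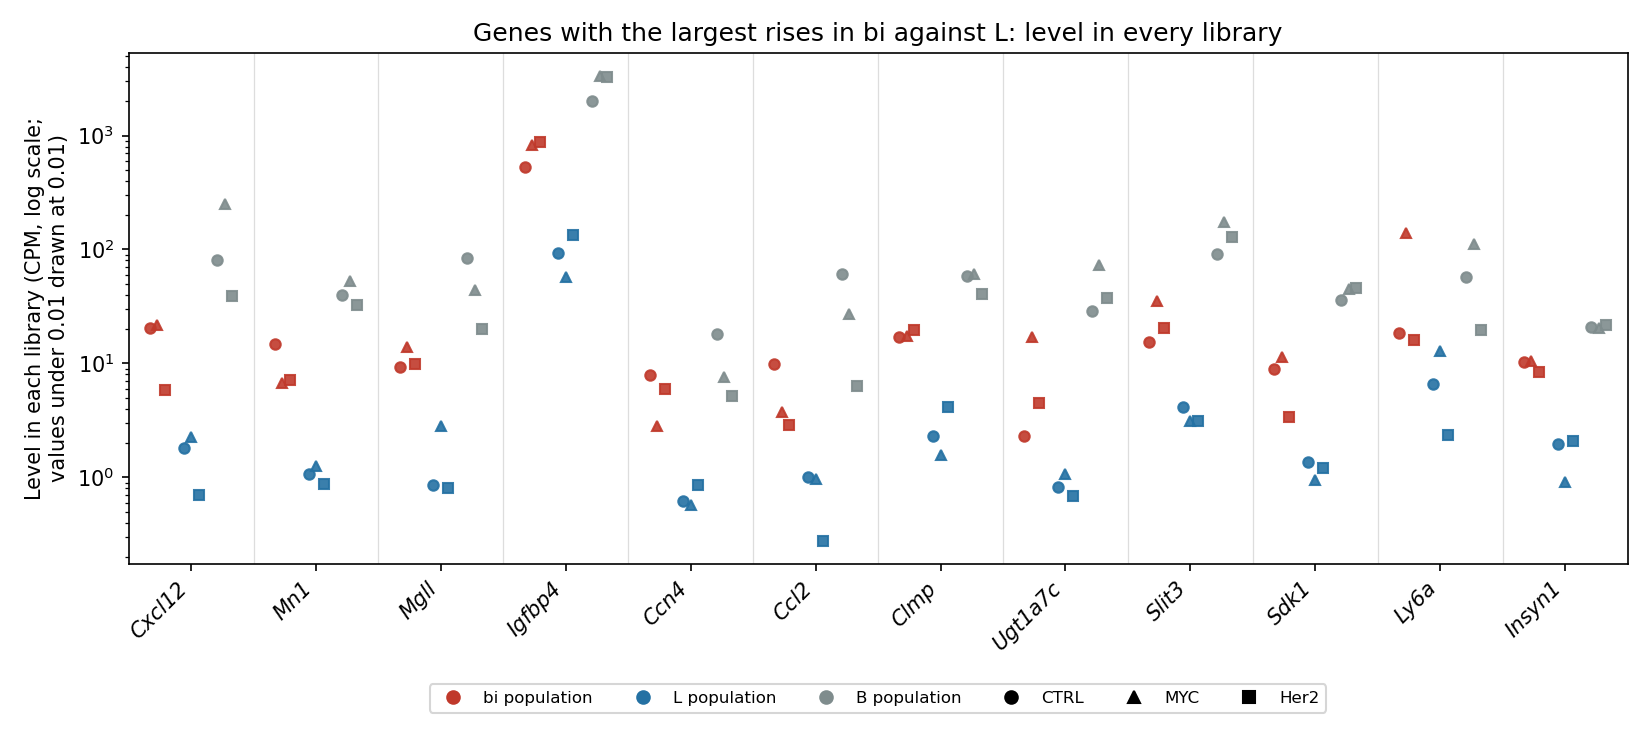
Level in every library (CPM, log scale) of the 12 genes with the largest rises in bi against L, with bi, L and B side by side and the arm given by the symbol. Every bi library lies above every L library of the same gene, and for most genes bi lies between L and B.

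Slit3, a secreted ligand of Robo receptors, was at 15.4, 35.3 and 20.3 CPM in bi, against 4.12, 3.15 and 3.15 CPM in L (2.66, SE 0.29, adjusted p = 0.00937). Nrp1, a co-receptor for semaphorins and VEGF, was at 40.0, 11.6 and 28.4 CPM in bi, against 13.3, 4.14 and 10.4 CPM in L (1.51, SE 0.20, adjusted p = 0.0159). The bi and L levels of Slit3 did not overlap, while Nrp1 in bi MYC lay below L CTRL and its call was lost without L MYC or bi Her2. These were the 2 of 29 guidance genes called by edgeR, while DESeq2 called 8, 5 higher and 3 lower, and 10 had an unadjusted p under 0.05. The median was 0.09, against -0.04 without L MYC, 0.30 without L Her2 and 0.16 without bi Her2. Of 32 Wnt and CCN genes edgeR called 2, both higher, DESeq2 called 9, 7 higher and 2 lower, and 17 had an unadjusted p under 0.05. Their median was 0.44, and it lay between 0.34 without bi Her2 and 0.80 without bi CTRL. Ccn4, a matricellular Wnt target, was at 7.87, 2.84 and 5.96 CPM in bi, against 0.624, 0.571 and 0.850 CPM in L (2.90, SE 0.42, adjusted p = 0.0220), and its call was lost without L MYC, L Her2 or bi Her2. Sostdc1, a secreted antagonist of BMP and Wnt signals, was at 42.8, 184 and 18.4 CPM in bi, against 20.2, 15.8 and 3.28 CPM in L (2.37, SE 0.44, adjusted p = 0.0490). Its bi Her2 level lay below L CTRL, and its call was lost without any 1 of the B libraries and without L MYC, L Her2, bi MYC or bi Her2.

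Some 16 of the 179 called genes kept their call in all 12 fits that left out 1 of the 9 libraries or 1 of the 3 arms, and all 16 were higher in bi. Besides Igfbp4, Cxcl12 and Slit3 these included Zeb1, Fstl1, Fkbp10, Tubb3, Sdc3, Lmx1b, Mn1, Epb41l3, Dysf, Mxra8, Insyn1, Il2rg and Ch25h. Zeb1, a transcription factor known for repressing Cdh1, was at 15.02, 13.8 and 14.6 CPM in bi, against 3.003, 1.69 and 4.35 CPM in L and 56.6, 55.0 and 61.1 CPM in B. Its 3 populations did not overlap, and bi was nearly level over the arms (2.33, SE 0.26, adjusted p = 0.00937). Fkbp10, a prolyl isomerase that helps collagen fold, was at 41.9, 38.1 and 47.0 CPM in bi, against 11.7, 10.3 and 13.2 CPM in L and 96.6, 106 and 86.1 CPM in B. Its log2 ratio was close to the same in every arm, 1.84, 1.88 and 1.83 in CTRL, MYC and Her2 (1.85, SE 0.18, adjusted p = 0.00813). Sdc3, a heparan sulfate proteoglycan, was at 42.6, 54.9 and 50.0 CPM in bi and 8.83, 7.60 and 10.8 CPM in L (2.45, SE 0.27, adjusted p = 0.00937). The LIM homeodomain factor gene Lmx1b was at 20.1, 21.998 and 22.3 CPM in bi and 4.62, 2.27 and 4.65 CPM in L (2.51, SE 0.27, adjusted p = 0.00937). For Sdc3 and Lmx1b the bi and L levels stood well apart. Mn1, a transcriptional coactivator, was at 14.8, 6.76 and 7.11 CPM in bi and 1.08, 1.27 and 0.865 CPM in L (3.12, SE 0.30, adjusted p = 0.00813).

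Other large rises were of genes with varied roles. Mgll, which encodes monoacylglycerol lipase, was at 9.32, 14.1 and 9.78 CPM in bi, against 0.858, 2.80 and 0.806 CPM in L (3.05, SE 0.48, adjusted p = 0.0283). Clmp, a cell adhesion molecule gene, was at 17.1, 17.5 and 19.6 CPM in bi, against 2.33, 1.56 and 4.15 CPM in L (2.80, SE 0.33, adjusted p = 0.0102). The cell adhesion gene Sdk1 was at 8.97, 11.3 and 3.36 CPM in bi, against 1.35, 0.952 and 1.22 CPM in L (2.66, SE 0.39, adjusted p = 0.0220). In none of the 3 did bi and L overlap. Ugt1a7c, a glucuronosyltransferase gene that shares exons with other Ugt1a genes and so is uncertain, was at 2.28, 17.1 and 4.52 CPM in bi, against 0.819, 1.08 and 0.689 CPM in L (2.78, SE 0.41, adjusted p = 0.0220). These calls were lost without bi Her2 for Clmp, L Her2, bi MYC or bi Her2 for Mgll, L MYC or bi MYC for Sdk1 and L MYC, L Her2 or bi Her2 for Ugt1a7c.

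Genes linked with mesenchymal cells and matrix rose in part. Of 24 tested mesenchymal transition genes 4 rose and none fell in edgeR, DESeq2 called 8, all higher, and 10 had an unadjusted p under 0.05. Their median log2 fold change was 0.69, and 19 were positive. It lay between 0.54 without the MYC arm and 1.23 without L Her2. By arm the median log2 ratio of the list was 0.87 in CTRL, 1.28 in MYC and 0.27 in Her2. Besides Zeb1, Fstl1, a secreted glycoprotein, was at 125, 57.1 and 76.1 CPM in bi and 35.1, 13.8 and 10.3 CPM in L (2.23, SE 0.25, adjusted p = 0.00937). The transcription factor gene Twist2 was at 9.03, 5.28 and 15.3 CPM in bi, against 2.44, 0.596 and 4.63 CPM in L (2.14, SE 0.34, adjusted p = 0.0283). The gelatinase gene Mmp9 was at 2.14, 1.02 and 5.65 CPM in bi, against 0.234, 0.102 and 0.791 CPM in L (3.01, SE 0.54, adjusted p = 0.0427). None of these overlapped between bi and L, but the call of Twist2 was lost without B CTRL, L MYC, bi MYC or bi Her2, and that of Mmp9 without 7 single libraries. Vim, which encodes the filament protein vimentin and was chosen after its values were seen, was at 397, 204 and 466 CPM in bi and 247, 228 and 427 CPM in L, which overlapped (0.23, adjusted p = 1).

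Of 21 fibroblast and matrix genes 4 rose, none fell, and the median was 1.08. DESeq2 called 7 of them, all higher, and 9 had an unadjusted p under 0.05. Thbs2, a matricellular thrombospondin, was at 191, 307 and 91.7 CPM in bi, against 46.4, 27.5 and 41.8 CPM in L and 1106, 1492 and 731 CPM in B (2.17, SE 0.37, adjusted p = 0.0373). The matrix glycoprotein genes Fbln2 (1.37, adjusted p = 0.0348), Fbln1 (1.08, adjusted p = 0.0335) and Fbn1 (2.13, adjusted p = 0.0376) were the others. Fbln2 was at 129.6, 113 and 108 CPM in bi and 57.1, 27.8 and 55.0 CPM in L. Among these 4 genes Fbn1 alone overlapped, with bi MYC below L CTRL, and each lost its call without bi MYC or bi Her2 and without L CTRL. Of the defining fibroblast and adipocyte markers, Pdgfra was at 11.8, 28.9 and 12.8 CPM in bi and 13.99, 14.4 and 13.8 CPM in L, and 0 of the 10 tested adipocyte and fibroblast markers were called (edgeR, with 0 at an unadjusted p under 0.05 and 0 called by DESeq2). Of these 10, 7 were positive, with a median of 0.21 that lay between -0.20 without the CTRL arm and 0.52 without L Her2. Cd34, the member with the smallest p, was at 61.9, 69.1 and 106 CPM in bi and 36.9, 7.78 and 130.2 CPM in L, with a log2 ratio of 3.15 in the MYC arm (0.98, SE 0.54, adjusted p = 0.756). Their summed level was 80.8 to 123 CPM in bi and 28.5 to 150 CPM in L, and 11 of the 16 listed were under 1 CPM in bi and L. The part of such cells in the rise of the matrix genes was not tested.

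Of 23 basal and myoepithelial genes edgeR called 1, Igfbp2, DESeq2 called 6, all higher in bi, and 10 had an unadjusted p under 0.05. The median was 0.72, and 0.45 without L MYC, and 21 were positive. The summed level of the list was 7926 to 9764 CPM in bi, against 3548 to 6480 CPM in L and 4753 to 7671 CPM in B, so that bi and L did not overlap. Krt14 was at 1544, 2422 and 1285 CPM in bi, against 1128, 587 and 603 CPM in L (1.19, SE 0.28, adjusted p = 0.126). Krt5 was at 2312, 2148 and 1729 CPM in bi, against 2152, 797 and 994 CPM in L (0.74, SE 0.31, adjusted p = 0.508). Krt14 in every bi library was above every L library, whereas Krt5 in bi Her2 and bi MYC lay below L CTRL. Trp63, the transcription factor gene of basal cells, was at 355, 663 and 299 CPM in bi, against 357, 215 and 121 CPM in L (0.96, SE 0.29, adjusted p = 0.254).

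Luminal marker genes fell in part. Of 18 luminal keratins and shared luminal markers 3 fell, none rose, 17 had a negative log2 fold change and the median was -1.09. DESeq2 called 9, 8 lower and 1 higher, and 12 had an unadjusted p under 0.05. Krt8, which pairs with Krt18 in the filaments of simple epithelia, was at 0.533, 3.31 and 0.951 CPM in bi, against 5.89, 20.9 and 31.0 CPM in L (-3.66, SE 0.61, adjusted p = 0.0330). Krt7 was at 11.6, 18.5 and 14.2 CPM in bi, against 84.3, 76.6 and 680.3 CPM in L (-3.62, SE 0.68, adjusted p = 0.0498). The tight-junction gene Cldn7 was at 2.88, 6.80 and 1.75 CPM in bi, against 12.03, 23.6 and 42.5 CPM in L (-2.72, SE 0.51, adjusted p = 0.0492). In none of the 3 did bi and L overlap, B was under 1 CPM in each, and the L Her2 library was the highest. All 3 calls were lost without bi CTRL, bi Her2 or L MYC. The other luminal keratin genes missed the threshold. Krt18 was at 46.5, 80.6 and 68.3 CPM in bi and 133, 253 and 850.1 CPM in L (-2.26, SE 0.46, adjusted p = 0.0753), and Krt19 at 0.117, 0.611 and 0.0802 CPM in bi and 1.37, 2.50 and 16.5 CPM in L (-4.29, SE 0.997, adjusted p = 0.116).

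Csn1s1 (chr5:87666208-87682578) had the largest fall of the genes named by size, and was at 0.0853, 0.572 and 0.0229 CPM in bi, against 3.17, 34.3 and 0.454 CPM in L (-5.41, SE 0.65, adjusted p = 0.0103). L MYC was far above the other libraries, and bi MYC lay above L Her2. In the Her2 arm the counts were 2 reads in bi and 31 in L, so L was 19.8 times bi, with an exact 95% interval of 5.05 to 171 for counting error. Csn3, the kappa-casein gene, was at 0.0107, 0.0788 and 0.126 CPM in bi, against 0.364, 1.42 and 1.11 CPM in L (-3.79, SE 0.63, adjusted p = 0.0326). In the CTRL arm Csn3 rested on 1 read in bi and 28 in L. There L was 34.1 times bi, with an exact 95% interval of 5.64 to 1396 for counting error. Its call was lost without L MYC, L Her2 or any 1 of the bi libraries. These were the 2 of 8 tested milk and secretory genes that fell, none rose, DESeq2 called 2, both lower, and 3 had an unadjusted p under 0.05. The median was -0.35, and -0.05 without L Her2. Of 13 luminal progenitor genes 3 fell, none rose, and the median was -1.29, while DESeq2 called 5, all lower, and 7 had an unadjusted p under 0.05. Besides Csn3 these were Lcn2 and Kit, the receptor gene of stem cell factor. Kit was at 0.139, 2.33 and 0.0229 CPM in bi, against 0.897, 26.1 and 0.0733 CPM in L (-2.97, SE 0.41, adjusted p = 0.0293), so its level rested on the MYC arm. In the Her2 arm Kit had 2 reads in bi and 5 in L. The Csn1s1 call was lost without L MYC or bi MYC, and the Kit call without those, L CTRL, bi CTRL or bi Her2.

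Of 14 hormone-sensing luminal genes edgeR called 2, both lower and both at low levels, DESeq2 called 4, 3 lower and 1 higher, and 6 had an unadjusted p under 0.05. Foxa1, a pioneer factor of hormone-sensing cells, was at 0.0427, 0.0788 and 0.0687 CPM in bi, against 0.442, 0.749 and 1.29 CPM in L (-3.63, SE 0.54, adjusted p = 0.0230). Its bi levels rested on 4, 4 and 6 reads. The progesterone receptor gene Pgr was at 0.405, 0.611 and 0.103 CPM in bi, against 1.64, 3.77 and 0.513 CPM in L (-2.33, SE 0.42, adjusted p = 0.0443). Esr1, the estrogen receptor gene, chosen after its values were seen, was at 5.18, 4.71 and 3.65 CPM in bi and 5.94, 6.13 and 3.62 CPM in L (-0.19, adjusted p = 1). The median of the list was -0.29, against -0.59 without L CTRL and -0.15 without L MYC. The Foxa1 call was lost without L MYC, L Her2 or any 1 of the bi libraries, and the Pgr call without any 1 of the bi or L libraries.

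**Figure D3:**
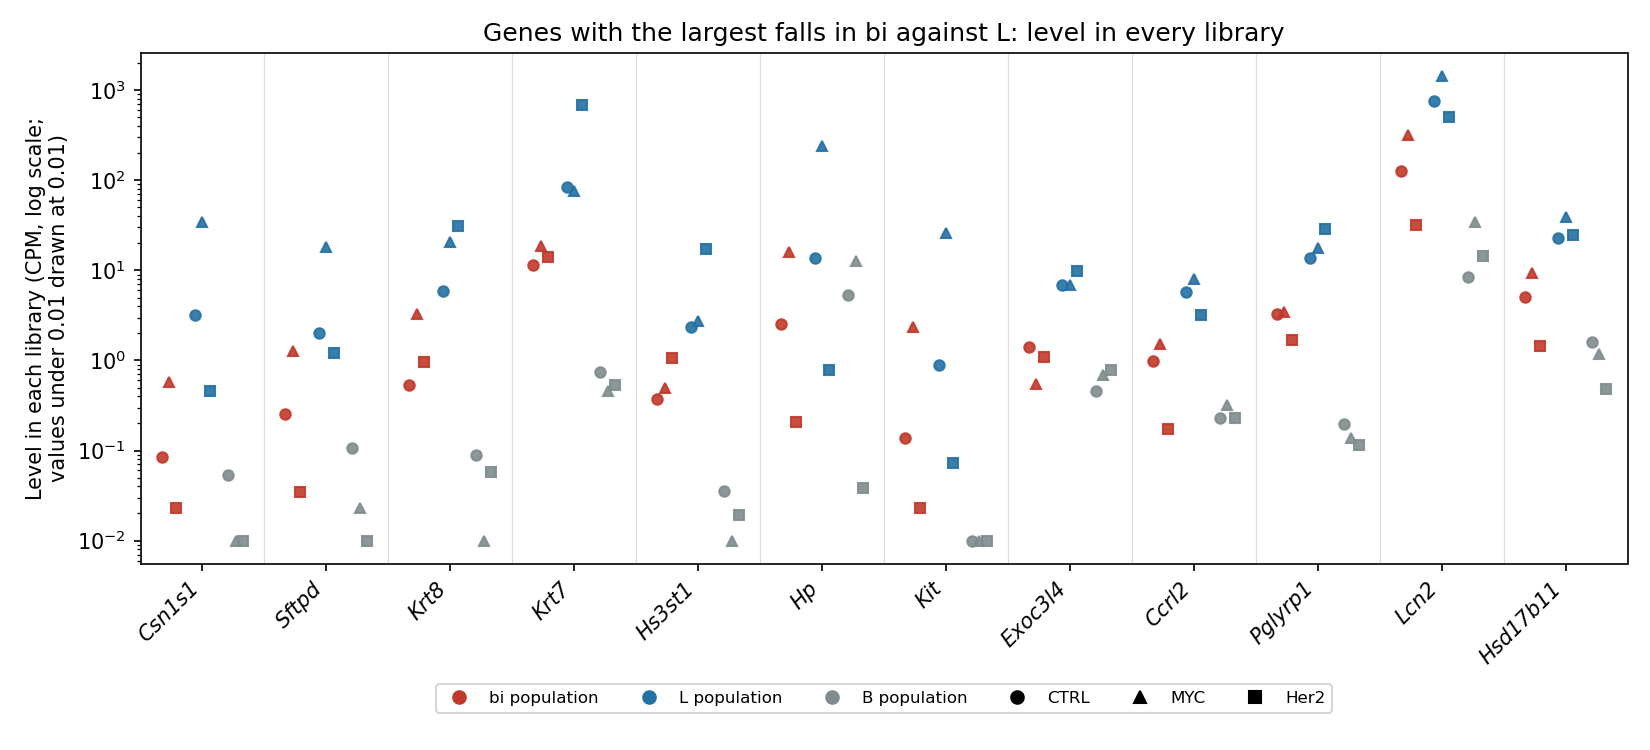
Level in every library (CPM, log scale, values under 0.01 drawn at 0.01) of the 12 genes with the largest falls in bi against L, with bi, L and B side by side and the arm given by the symbol. In each arm the bi library lies below the L library, and for Csn1s1, Sftpd, Hp and Kit the L MYC library stands far above the rest.

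Marveld3, a tight-junction protein gene, was at 3.01, 4.12 and 1.91 CPM in bi, against 7.48, 13.3 and 13.1 CPM in L (-1.94, SE 0.32, adjusted p = 0.0326), with no overlap, and its call was lost without L MYC, L Her2 or any 1 of the bi libraries. It was the 1 of 26 junction and polarity genes that edgeR called, while DESeq2 called 7, all lower, and 17 had an unadjusted p under 0.05. Of the 26, 21 were negative, and the median was -0.74, and -0.40 without L Her2. The median log2 ratio of the list was -0.38 in CTRL, -0.39 in MYC and -1.32 in Her2. E-cadherin (Cdh1), chosen after its values were seen, was at 265, 321 and 204 CPM in bi, 366, 432 and 644 CPM in L, and 2.02, 0.549 and 0.479 CPM in B (-0.91, adjusted p = 0.640). Here every bi library was below every L library and far above every B library.

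Genes of secreted defence proteins fell in part. Of 21 acute-phase and innate defence genes 4 fell and none rose, 20 were negative, and the median was -1.06, against -1.59 without L MYC and -1.77 without bi MYC. DESeq2 called 6 of the list, all lower, and 12 had an unadjusted p under 0.05. Lcn2, which binds bacterial siderophores, was at 128, 316 and 32.3 CPM in bi, against 764, 1434 and 501 CPM in L (-2.78, SE 0.44, adjusted p = 0.0283). Pglyrp1, a peptidoglycan recognition protein, was at 3.31, 3.45 and 1.71 CPM in bi, against 13.9, 18.0 and 29.1 CPM in L (-2.86, SE 0.39, adjusted p = 0.0167). Neither overlapped between bi and L. The Lcn2 call was lost without any 1 of the L libraries, bi MYC or bi Her2, and the Pglyrp1 call without L MYC or bi Her2. The surfactant collectin gene Sftpd was at 0.256, 1.26 and 0.0344 CPM in bi, against 2.03, 18.1 and 1.20 CPM in L (-3.82, SE 0.64, adjusted p = 0.0332). The haptoglobin gene Hp was at 2.52, 16.0 and 0.206 CPM in bi, against 13.6, 240.3 and 0.777 CPM in L (-3.04, SE 0.57, adjusted p = 0.0495). For both the L MYC library was the highest and the groups overlapped, and both calls were lost without L MYC, L Her2 or any 1 of the bi libraries. The cytokine genes Csf3, Lif and Il1a, chosen after their values were seen, were also lower in bi. Csf3, which drives granulocyte formation, was at 41.2, 13.0 and 61.1 CPM in bi, against 133, 56.4 and 463 CPM in L (-2.16, SE 0.38, adjusted p = 0.0406). Lif was at 117, 62.0 and 154 CPM in bi, against 255, 222 and 546 CPM in L (-1.65, SE 0.29, adjusted p = 0.0391). Il1a was at 154, 62.4 and 374 CPM in bi, against 271, 203 and 1037 CPM in L (-1.34, SE 0.21, adjusted p = 0.0260). All 3 calls were lost without L MYC, L Her2, bi MYC or bi Her2.

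The heparan sulfate sulfotransferase gene Hs3st1 was at 0.373, 0.493 and 1.07 CPM in bi, against 2.37, 2.72 and 17.1 CPM in L (-3.10, SE 0.46, adjusted p = 0.0230). Hsd17b11, a hydroxysteroid dehydrogenase gene, was at 5.12, 9.24 and 1.47 CPM in bi, against 22.6, 38.7 and 25.03 CPM in L (-2.76, SE 0.43, adjusted p = 0.0275). Exoc3l4 was at 1.43, 0.552 and 1.09 CPM in bi, against 6.85, 6.84 and 9.81 CPM in L (-2.94, SE 0.37, adjusted p = 0.0136). In none of the 3 did bi and L overlap. The Exoc3l4 call was lost without bi Her2, the Hsd17b11 call without L MYC, bi CTRL or bi Her2, and the Hs3st1 call without L MYC, L Her2 or any 1 of the bi libraries.

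Of 15 complement genes edgeR called 2, both higher in bi, DESeq2 called 6, 5 higher and 1 lower, and 8 had an unadjusted p under 0.05. The median was 0.04, and it lay between -0.18 without L Her2 and 0.40 without the MYC arm. C1s1, a serine protease of the classical pathway, was at 12.2, 60.8 and 5.73 CPM in bi, against 3.20, 8.95 and 1.92 CPM in L and 319, 557 and 104 CPM in B (2.13, SE 0.30, adjusted p = 0.0170). It has a close copy, C1s2, and reads may have been split between them. Its call was lost without L MYC or bi Her2. Masp1 was at 6.09, 13.7 and 1.70 CPM in bi, against 1.78, 1.38 and 0.806 CPM in L (2.05, SE 0.38, adjusted p = 0.0483), and its call was lost without any 1 of the 9 libraries.

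Several lists gave no call in edgeR. Since edgeR called 0.751% of all genes tested, 0 calls in a list of this size is near that share. Of 34 interferon response genes 0 were called, 22 had an unadjusted p under 0.05, and DESeq2 called 10, all lower in bi. The median was -1.17, and 33 were negative. The median log2 ratio was -0.66 in CTRL, -1.81 in MYC and -0.59 in Her2, and without the L MYC library the median of the list was -0.49. Gbp7, the member with the smallest p, was at 1.98, 3.71 and 1.05 CPM in bi, against 4.32, 10.9 and 2.11 CPM in L (-1.25, SE 0.28, adjusted p = 0.104), and DESeq2 called it (adjusted p = 0.00196). Of 30 G1/S genes and 30 G2/M genes 0 were called by edgeR or DESeq2 and 0 had an unadjusted p under 0.05, with medians of 0.06 (-0.15 without bi CTRL to 0.23 without bi MYC) and -0.08 (-0.18 without L MYC to 0.15 without L Her2). Likewise 0 were called of 17 Notch, 28 TGF-beta and BMP, 18 MHC class I, 30 cholesterol and fatty acid and 24 keratinocyte differentiation genes. In these 5 lists 3, 8, 3, 4 and 5 genes had an unadjusted p under 0.05. DESeq2 called 3 of the TGF-beta and BMP genes and 1 of the keratinocyte genes, all higher in bi, and 0 in the other lists. Among them were Grem1 and Dsc3, the TGF-beta and BMP member and the keratinocyte member with the smallest p, with adjusted p of 0.000329 and 0.000704. Of the other cell types, 0 of 9 tested immune markers and 0 of 10 endothelial markers were called (0 by DESeq2 and 0 at an unadjusted p under 0.05). The immune marker sum was 5.40 to 8.52 CPM in bi and 6.88 to 11.3 CPM in L, and Ptprc, found on all leukocytes, was under 1 CPM in every library.

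**Figure D4:**
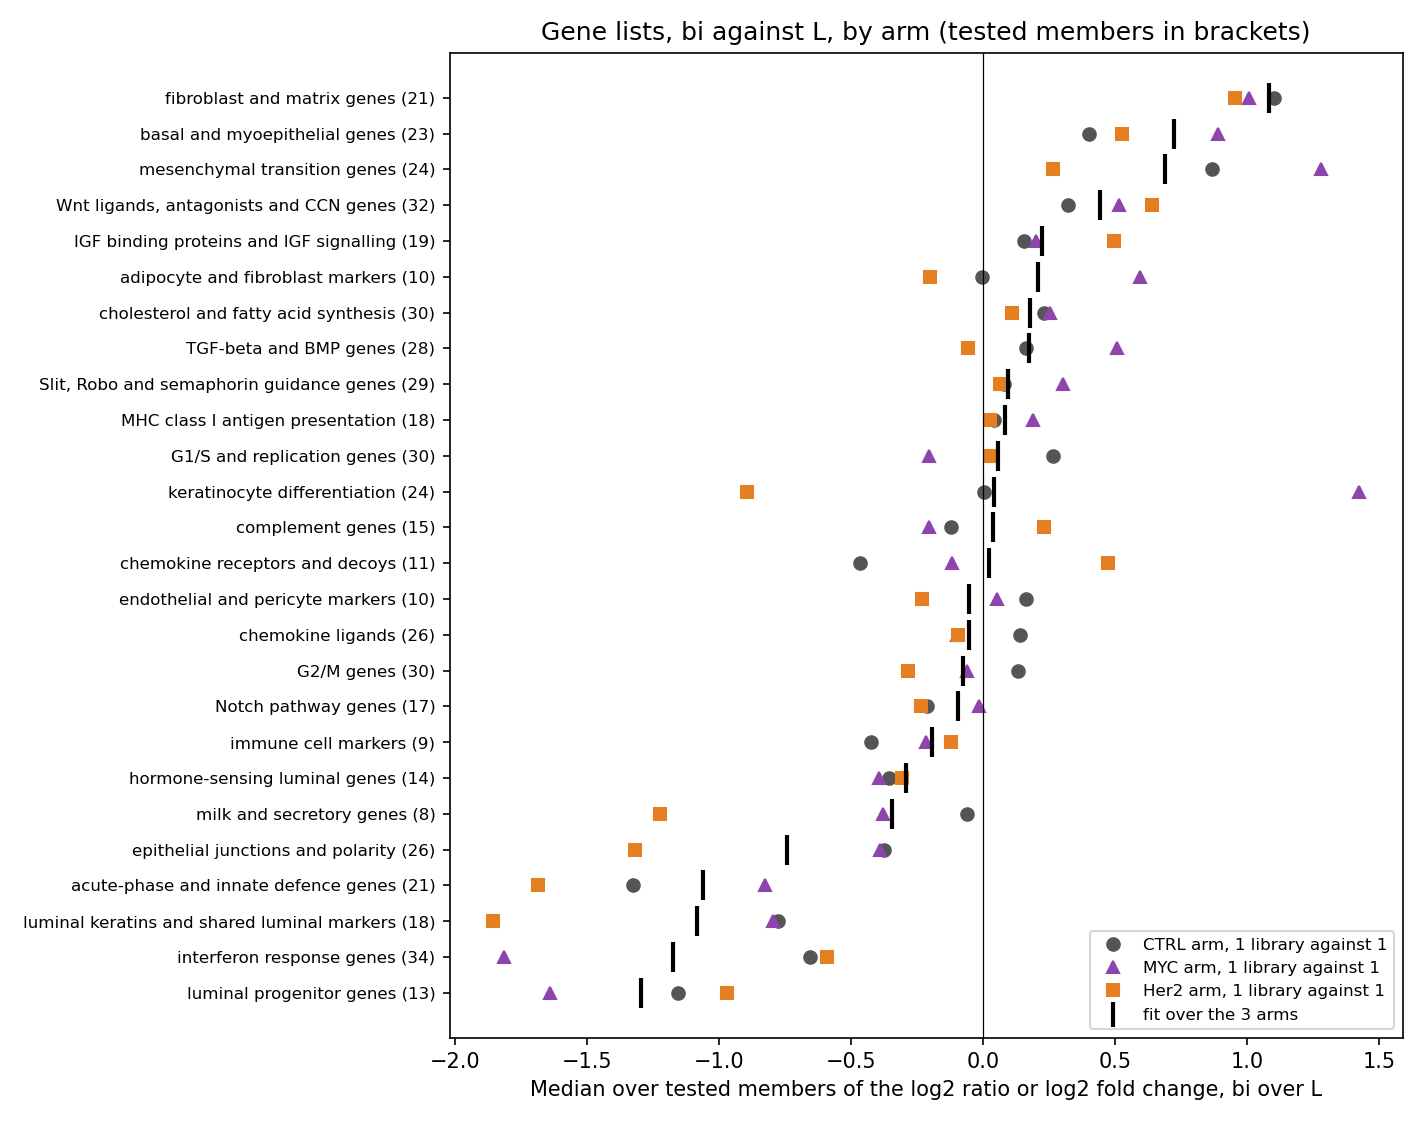
Median over the tested members of each gene list of the log2 ratio of bi to L in each arm (1 library against 1, points) and of the log2 fold change over the arms (bars), with the number of tested members in brackets. Luminal progenitor and luminal keratin genes lie below 0 and matrix genes above 0 in every arm, while keratinocyte genes lie at 0.00 in CTRL, 1.42 in MYC and -0.89 in Her2.

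The position of bi between L and B was read from the mean levels. With the L mean at 0 and the B mean at 100 on the CPM scale, bi lay at 11.9 for Cxcl12, 20.9 for Mn1, 23.6 for Igfbp4, 30.3 for Clmp and 50.7 for Ccn4 among the 12 largest rises, and at 90.8 for Ly6a, on which the cells were sorted. Other genes that rose had means further towards B, with Lmx1b at 61.7 and Sdc3 at 65.6, and the mean of Igfbp3 lay past B at 142. The means of the 12 largest falls lay between 84.1 for Lcn2 and 99.7 for Hp, with Krt8 at 91.9 and Krt7 at 94.9. Where B is near 0 CPM, any large fall gives a position near 100 on this scale, even if bi stays many times above B. The mean of Krt7 was 14.7 CPM in bi and 0.580 CPM in B, and that of Krt8 1.60 and 0.0488 CPM. Some of these positions differed widely between CTRL, MYC and Her2. By arm, Igfbp3 lay at 53.4, 337.1 and 259.9, and so past B in MYC and Her2 only. Ly6a lay at 23.2, 127.7 and 79.4, Ccn4 at 41.5, 32.1 and 117.5, and Sdc3 at 37.9965, 87.5 and 96.96. Igfbp4 differed little, at 22.95, 23.8 and 23.9. The choice of genes by their fold fixes these positions in part, and they are given with no test. Among the 179 called genes, 7 were at least 1.5 times above both L and B in every arm and 1 was as far below, all chosen for this after their values were seen. How many of all genes tested were so placed was not counted, and the called genes were chosen for differing between bi and L. The counts therefore show no trait of bi. Of the 8 genes outside both, Tubb3 alone kept its call in every fit that left out a library or an arm. Tubb3, a neuronal beta-tubulin gene, was at 31.7, 5.70 and 49.4 CPM in bi, against 8.42, 0.939 and 11.3 CPM in L and 2.82, 0.389 and 5.64 CPM in B. Within each arm bi was highest, although bi MYC lay below L CTRL (2.20, SE 0.22, adjusted p = 0.00813). Emx2, a homeobox gene, was at 1.13, 1.20 and 1.18 CPM in bi, against 0.273, 0.114 and 0.176 CPM in L and 0.746, 0.617 and 0.709 CPM in B (2.67, SE 0.37, adjusted p = 0.0167). It was higher in every bi library than in every L or B library. U90926, Sostdc1, Gramd2 and Gm35279 were among the others above, and the mitochondrial carrier gene Slc25a23 was below, at 4.21, 13.2 and 5.98 CPM in bi, 9.11, 21.7 and 19.0 CPM in L and 9.52, 26.5 and 14.5 CPM in B.

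Some genes differed between bi and L by arm, which these libraries cannot test. Acta2, the smooth muscle actin gene of myoepithelial cells, was at 105, 13.0 and 34.8 CPM in bi, against 6.41, 12.3 and 1.33 CPM in L, log2 ratios of 4.03, 0.08 and 4.67 in CTRL, MYC and Her2. In the MYC arm bi and L were close. Postn, a matricellular protein gene, was at 50.4, 261 and 13.8 CPM in bi, against 23.5, 393 and 0.528 CPM in L, log2 ratios of 1.10, -0.59 and 4.63. The kallikrein gene Klk6 was at 4.55, 6.21 and 19.1 CPM in bi, against 11.8, 7.07 and 553 CPM in L, and L Her2 stood apart from all other libraries. Sprr1a, a cornified envelope precursor gene, was at 4.93, 40.3 and 4.59 CPM in bi, against 1.85, 0.749 and 20.8 CPM in L. It was higher in bi in CTRL and MYC and lower in Her2. The basal keratin gene Krt15 was at 1.88, 113 and 0.504 CPM in bi and 1.74, 10.7 and 2.73 CPM in L, with bi MYC the highest. Lars2, a mitochondrial leucyl-tRNA synthetase gene chosen after its values were seen, was at 1043 CPM in bi Her2 and 140.3 to 319.8 CPM in the other libraries.

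**Figure D5:**
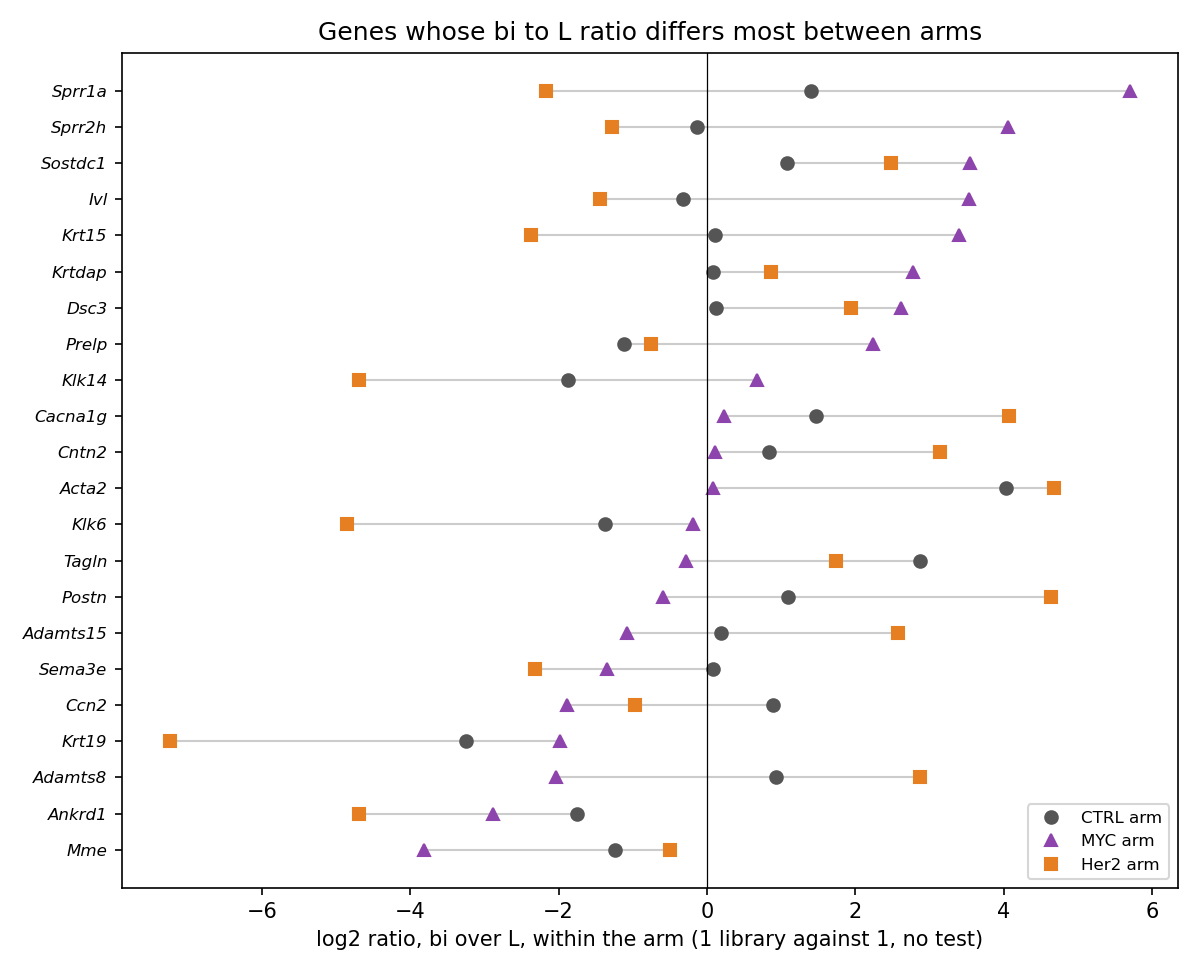
Log2 ratio of bi to L within each arm, 1 library against 1 with no test, for the genes whose ratio in 1 arm lay farthest from the mean of the other arms. Sprr1a spans 5.70 in MYC to -2.17 in Her2, and Acta2 lies at 4.03, 0.08 and 4.67 in CTRL, MYC and Her2.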

How the data were processed

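RNA was sequenced from 9 sorted Comma-1D samples. The series' design text names single-cell RNA-seq, but each file holds 1 gene table for a sorted population, and the files were treated as bulk libraries. Stranded libraries were made with a ribosomal-RNA depletion kit per the labels' protocols, although the molecule label reads polyA RNA. The deposited files hold an estimated count (expected count) of reads per gene and TPM values, per the file headers, made with Salmon 0.9.1 on mm10 per the submitters' processing notes. Other steps are not given in the sources used here. The authors' TPM served as an alternative on the log2(TPM + 1) scale.

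Of 54281 genes listed, 53544 took a symbol by versioned Ensembl identifier, 563 without the version, and 174 had none. Gene types and coordinates are from GENCODE M21 on the same build. After rounding the counts, edgeR 4.0.16 (R 4.3.3) kept 23834 genes by filterByExpr within arms (minimum count 10, total 15) and scaled the libraries by TMM. Its quasi-likelihood model took population and arm over all 9 libraries and left 4 residual degrees of freedom. The arm is the block that pairs bi with L, as the labels give it, and p-values were adjusted by Benjamini-Hochberg over all genes tested. The SE is the size of the log2 fold change divided by the square root of F. No test was run over a gene list. Ratios within an arm are log2 ratios of CPM with a prior count of 2. Intervals are exact binomial at 95% and cover counting error alone. In the deepest library 10 reads are 0.101 CPM. The script was tested on simulated data. Where nothing says the libraries came from separate cultures, p-values measure the spread between these samples with the mean differences between arms taken out. That spread holds library noise, which may be technical, and differences between arms in how the populations differ.

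The genes and lists were chosen with earlier results of these data known. Named are Ly6a, Epcam, Igfbp4 and Cxcl12, then the 12 largest rises and 12 largest falls among called protein-coding genes of at least 5 CPM with 1 sign in all arms, up to 15 genes called in each fit that omitted 1 library or arm, up to 4 called members of each list or the member with the smallest p, the 4 highest and 4 lowest genes by arm at 10 CPM or more, and defining cell type markers. Promoters are from RefSeq. One gene among those chosen after their values were seen is not reported here. Alternatives were DESeq2 1.42.0 (its size factors and its Wald test), no filter, 1 CPM in 3 libraries, the 6 bi and L libraries alone, no arm term, TPM with limma 3.58.1, and leaving out each library and each arm.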

Additional observations from a re-analysis of the deposited data

Results flagged for a closer look

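Of the genes picked because their bi to L ratio differed most by arm, 7 ran in opposite directions between arms, by at least 1 each way on the log2 scale. Each arm set 1 library against 1, and the count does not cover the other genes tested. Itga2, which was not in that pick, was at 1.03 in CTRL and -1.02 in MYC. These differences were not tested. Of the cornified envelope genes, Sprr1a was at 1.40 in CTRL, 5.70 in MYC and -2.17 in Her2, Sprr2h at 4.06 in MYC and -1.29 in Her2, and Ivl, which encodes involucrin, at 3.53 in MYC and -1.44 in Her2. The basal keratin gene Krt15 was at 3.40 in MYC and -2.37 in Her2. The matrix proteoglycan gene Prelp was at -1.11 in CTRL and 2.24 in MYC. The metalloproteinase genes Adamts8 and Adamts15 ran the other way, at -2.04 in MYC and 2.88 in Her2 for Adamts8 and at -1.07 in MYC and 2.57 in Her2 for Adamts15. All 7 were picked as the genes that differed most by arm.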

How the results depend on the processing

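The count of called genes moved with the processing, while no gene named for its average over the arms changed sign (0 of 1352 pairs of a gene and a setting). Since all 179 called genes had the same sign in all 3 arms, a reversal could hardly occur for the called genes among them. Against 179 calls the count was 184 with DESeq2 size factors and 263 with bi and L alone, which split 131 higher and 132 lower in bi. It was 698 without a filter on low counts (354 higher and 344 lower), 93 with a filter of 1 CPM in 3 libraries (70 and 23), 663 with the DESeq2 Wald test (349 and 314) and 2 with deposited TPM. Without the replicate block, that is without the arm term that pairs bi with L, 20 genes were called (18 and 2). Leaving out 1 library or 1 arm gave 33 to 241 calls: 33 without bi Her2 (32 higher and 1 lower), 34 without L MYC, 44 without bi MYC, 59 without L Her2, 74 without the Her2 arm, 96 without the MYC arm, 116 without the CTRL arm and 241 without B Her2. The cause of these moves was not tested. Of the 60 named genes that were called, 14 kept their call in every such fit, 58 with the DESeq2 Wald test, 31 with the stricter filter, 15 without the arm term and 2 with TPM. The 14 is set in part by the choice of genes, since up to 15 were named for keeping their call in every such fit. Over all 179 called genes 16 did so. Several called genes lie under 1 CPM, where a few reads set the ratio. No replicate exists within a population and arm, so differences between arms have no test.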
